A study of Homo sapiens with 40 samples.

Results

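Antisense long non-coding RNAs (lncRNAs) are described here as the counted genes whose symbol ends in -AS and a number, with OIP5-AS1 left out. Members needed a mean of at least 1 CPM (counts per 1000000 counts of the library) in the 4 input RNA libraries of cells given control siRNA. This rule kept 148 of 840 genes with such a symbol, among 55765 counted genes. All 40 RNA-Seq libraries came from HEK293, an established human embryonic kidney cell line. In the RNA immunoprecipitation experiment (RIP-Seq), lysates were used for total RNA and for immunoprecipitation (IP) of endogenous eIF4A1, eIF4A2 or DDX6, and each of these 4 groups had 3 libraries. For sucrose gradients, cells carried control siRNA or siRNA against CNOT1, and cleared lysates gave input RNA, subpolysomal RNA from fractions 1 to 5 and polysomal RNA from fractions 6 to 11, with 4 libraries in each of 6 groups. In the third experiment, total RNA was taken from cells with control siRNA or with siRNAs against TNRC6A and TNRC6B together, with 2 libraries per group. The labels do not say whether libraries of a group came from separate cultures, so p-values measure only the spread between these libraries.

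An antisense lncRNA is transcribed from the strand opposite to a gene it overlaps or faces, and it usually carries the name of that gene. Such RNAs are capped, spliced and polyadenylated like mRNAs, but most hold no long open reading frame. Many stay in the nucleus, while others are exported and can meet ribosomes and cytoplasmic RNA-binding proteins. eIF4A1 is the helicase of the cap-binding complex eIF4F, eIF4A2 is its close paralogue, and DDX6 is a helicase of mRNA repression and decapping. CNOT1 is the scaffold of the Ccr4-Not deadenylase complex, and the TNRC6 proteins connect Argonaute to it.

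The libraries held between 15.4 and 46.0 M counts (M, 1000000), and no antisense transcript had a count of 0 in any library (lowest count, 4). In the shallowest library the median count of an antisense transcript was 56.5. The neurofilament genes NEFL and NEFM, which HEK293 cells are known to express, were at 74.6 or more and 222 or more CPM in every library, whereas the kidney gene PAX2 reached only 1.59 CPM. Markers of other cell types (ALB, PTPRC and HBB) did not exceed 0.403 CPM. CNOT1 stood at 593 to 657 CPM in control input and at 36.2 to 41.1 CPM in CNOT1 siRNA input, and at 235 to 310 against 91.6 to 104 CPM in subpolysomal RNA. The library labelled polysomal control replicate 3 held 27.4 CPM of CNOT1 against 447 to 469 in the other 3, and the library labelled polysomal CNOT1 siRNA replicate 3 held 590 CPM against 22.9 to 31.5. These 2 libraries go against their labels, and polysomal values are also given without them. TNRC6A was at 172 and 197 CPM with control siRNA and at 39.2 and 66.2 CPM with TNRC6A/B siRNA, and TNRC6B at 65.4 and 76.1 against 17.1 and 26.9 CPM.

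Most antisense transcripts were scarce. In control input, 47 had a mean between 1 and 2 CPM, 67 between 2 and 10 CPM and 34 at least 10 CPM, with a median of 3.48 CPM. DDX11-AS1 (1.04 CPM) and RAMP2-AS1 (1.04 CPM) lay just inside the minimum, and PSMD6-AS2 (0.981 CPM) just outside. Together the 148 transcripts made up 1596 CPM, of which C17orf76-AS1 alone held 26.7%. C17orf76-AS1, now called SNHG29, is named a small nucleolar RNA host gene. FGD5-AS1 followed at 118 CPM, and HNRNPU-AS1, TP73-AS1, THAP9-AS1, VPS9D1-AS1, MAGI2-AS3, ENTPD1-AS1, SETD5-AS1 (now THUMPD3-AS1) and NUTM2A-AS1 completed the 10 most abundant.

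Long annotated transcripts collect more reads, so levels between genes were set side by side per kb of union exon. The exon lengths come from GENCODE release 44, whose gene models may differ from those used for the deposited counts. The order of genes on this scale is therefore approximate. On that scale C17orf76-AS1 still led in control input with 47.6 ± 3.11 CPM per kb (SD, n = 4), followed by VPS9D1-AS1 with 23.9 ± 2.62 and FGD5-AS1 with 19.5 ± 0.842 CPM per kb. The libraries of C17orf76-AS1 (43.6 to 50.99 CPM per kb) did not overlap those of VPS9D1-AS1 (20.5 to 26.9). NCBP2-AS2, which is annotated as protein-coding, came next with 13.6 ± 1.66 CPM per kb. THAP9-AS1 had 10.1 ± 0.954 CPM per kb, below every library of NCBP2-AS2. The gene models of NUTM2A-AS1 belong to a family of near-identical copies, among which reads may have been split.

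In GENCODE release 44 on GRCh37, the build named hg19 in the labels, 147 of the 148 genes were placed, 108 by the current symbol and 39 by an older one. HNRNPU-AS1 could not be placed on its own, because that name is now an older symbol of HNRNPU itself, so its counts may hold RNA of HNRNPU. Among the placed genes 140 were annotated as lncRNA, 5 as protein-coding (RPA3-AS1, MMP24-AS1, NCBP2-AS2, TOPORS-AS1 and SPTY2D1-AS1) and 2, TP73-AS1 and ZNRD1-AS1, as transcribed unitary pseudogenes. The exons of 123 overlapped exons of a gene on the other strand, 19 lay head to head with such a gene within 1 kb, 4 overlapped such a gene without exon on exon, and FOXD2-AS1 did neither. For 22 genes the current symbol ends in -DT, the suffix for divergent transcripts. In 8 genes more than 50% of the exon sequence lay under opposite-strand exons, where reads of both strands can be told apart only if the counting used strand. The library kit keeps strand, but the strand setting of the counting is not given in the sources used here.

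As a group, antisense transcripts took up a larger share of the RNA recovered in each of the 3 IPs than of total RNA. No library of a control IP with IgG is among the samples. Recovery common to any IP can therefore not be told apart from recovery with these proteins. Their summed level was 1970 ± 185 CPM in RIP total RNA, 3757 ± 263 CPM in the eIF4A1 IP, 3881 ± 144 CPM in the IP of eIF4A2 and 3447 ± 293 CPM in the DDX6 IP (SD, n = 3). The 3 total RNA libraries ranged from 1818 to 2176 CPM and the 9 IP libraries from 3174 to 4047 CPM, without overlap. Without C17orf76-AS1 the sums were 1475 ± 215, 3005 ± 260, 3323 ± 94.4 and 2429 ± 83.1 CPM, in the same order of groups.

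**Figure D1:**
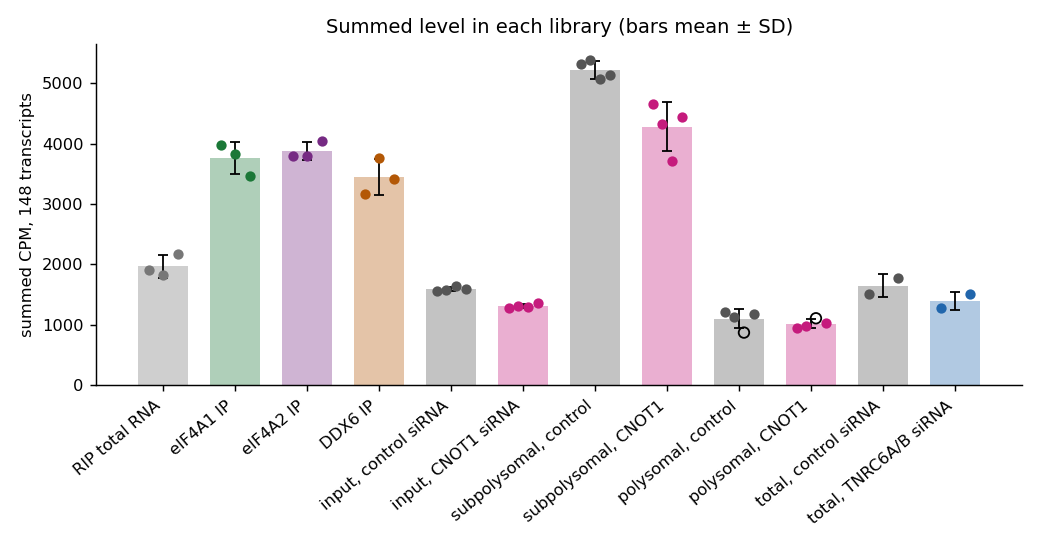
Summed CPM of the 148 antisense transcripts (y axis) in each of the 12 groups (x axis), with bars for the mean, error bars for the SD and points for libraries. Open circles mark the libraries labelled polysomal replicate 3. The subpolysomal libraries with control siRNA are highest (5072 to 5380 CPM), and all IP libraries lie above RIP total RNA.

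Transcript by transcript, the eIF4A1 IP exceeded total RNA for 92 of the 148 and fell below it for 12 (edgeR quasi-likelihood test, FDR below 0.05 over all genes, and fold changes relative to TMM-scaled totals). Across all 17474 genes tested the shares were 26.1% higher and 26.5% lower, against 62.2% and 8.11% of the antisense transcripts. In the eIF4A2 IP 86 were higher and 9 lower (58.1% and 6.08%), where 24.5% and 25.8% of all genes were called. In the DDX6 IP 80 were higher and 15 lower (54.1% and 10.1%), where 22.7% and 23.3% of all genes were called. The median log2 fold change of the antisense transcripts was 0.68, 0.64 and 0.54 in the eIF4A1, eIF4A2 and DDX6 IP, and that of all genes 0.04, 0.01 and 0.01. All 3 IPs are divided by the same total RNA libraries, so these are not independent comparisons. The 58 intergenic LINC genes that met the same CPM minimum had medians of 0.59, 0.52 and 0.48, so a shift of this size was also measured in other lncRNAs. With library totals in place of TMM factors the median of all genes moved to 0.29, 0.32 and 0.16 and that of the antisense transcripts to 0.93, 0.95 and 0.69.

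**Figure D2:**
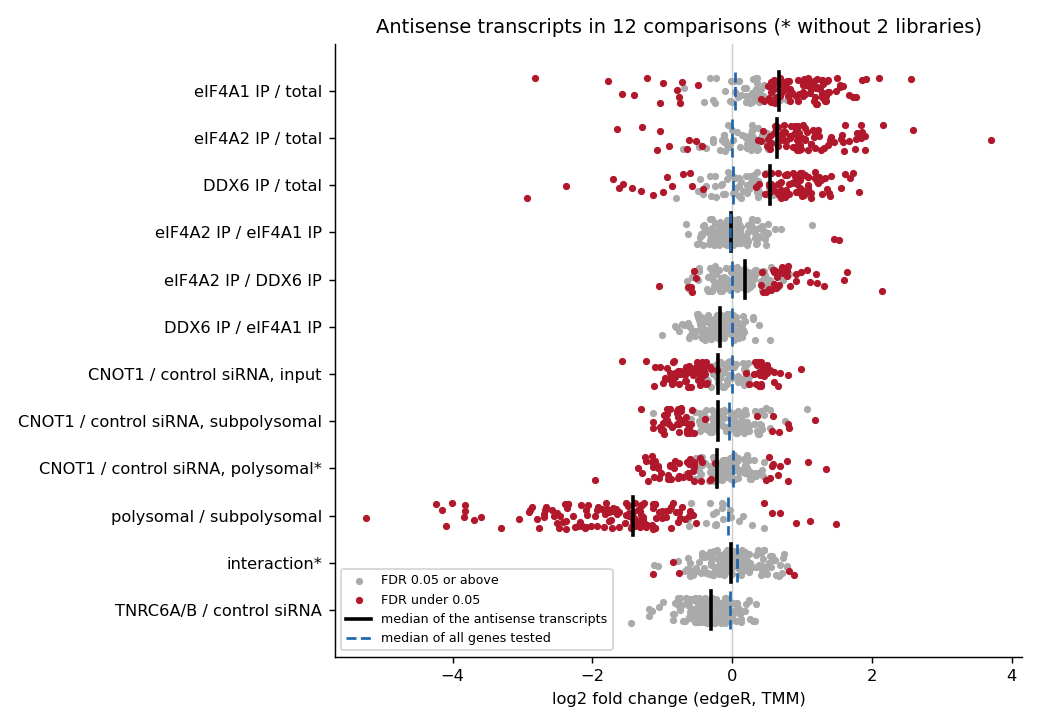
Log2 fold change (x axis) of each antisense transcript in the 12 comparisons (y axis), first group over second, in red where FDR was below 0.05. Solid bars are medians of the antisense transcripts and dashed bars medians of all genes tested. The shifts away from the dashed bar are to the right in the 3 IPs (medians 0.68, 0.64 and 0.54) and to the left in polysomal over subpolysomal RNA (-1.42). An asterisk marks fits without the 2 libraries labelled polysomal replicate 3.

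FLG-AS1, antisense to the gene of the skin protein filaggrin, had the largest fold changes in the eIF4A1 and eIF4A2 IPs. It stood at 0.529, 0.808 and 1.56 CPM in total RNA, at 10.3, 3.80 and 5.80 CPM in the eIF4A1 IP, at 17.8, 10.1 and 17.8 CPM in the IP of eIF4A2 and at 3.30, 2.68 and 3.19 CPM in the DDX6 IP. Every IP library was above every total RNA library, which for eIF4A1 and eIF4A2 was a condition for naming it here. The log2 fold changes over total RNA were 2.56 ± 0.38 (SE, FDR = 0.000111) for eIF4A1, 3.71 ± 0.39 (FDR = 6.82e-06) for eIF4A2 and 1.56 ± 0.39 (FDR = 0.00491) for DDX6. Filaggrin itself had too few counts to be tested in this experiment.

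SOX21-AS1 and KIF9-AS1, named for a neural transcription factor and a kinesin, followed in the eIF4A2 IP. SOX21-AS1 had 7.29, 6.41 and 6.52 CPM in total RNA and 55.6, 51.7 and 45.4 CPM in the eIF4A2 IP (log2 fold change 2.60 ± 0.17, FDR = 4.35e-07). KIF9-AS1 had 2.32, 2.22 and 2.75 CPM in total RNA and 13.0, 12.5 and 15.1 CPM in the eIF4A2 IP (2.16 ± 0.15, FDR = 4.68e-07). Neither gene's libraries overlapped between the groups, which was a condition for naming them here. Their sense genes moved less, with a log2 fold change of 0.74 for SOX21 (FDR = 0.105) and 0.62 for KIF9 (FDR = 0.0368).

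In the DDX6 IP the 3 largest increases were those of HHIP-AS1, TRAF3IP2-AS1 and RSBN1L-AS1. HHIP-AS1, antisense to the gene of a hedgehog-binding protein, rose from 1.56, 1.51 and 1.76 CPM in total RNA to 4.30, 7.15 and 7.40 CPM (log2 fold change 1.82 ± 0.25, FDR = 0.000111). TRAF3IP2-AS1 rose from 6.37, 6.61 and 7.87 CPM to 23.2, 27.2 and 25.9 CPM (1.73 ± 0.13, FDR = 8.11e-06). RSBN1L-AS1, now APTR, rose by 1.69 ± 0.19 on the same scale (FDR = 2.78e-05). All 3 were also higher in the eIF4A1 and eIF4A2 IPs, with log2 fold changes from 1.58 to 1.92.

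Among the 10 most abundant transcripts, FGD5-AS1 and TP73-AS1 stood out in every IP. FGD5-AS1 was at 108, 107 and 121 CPM in total RNA, at 462, 447 and 453 CPM in the eIF4A1 IP, at 458, 528 and 512 CPM in the IP of eIF4A2 and at 348, 384 and 400 CPM in the DDX6 IP. The log2 fold changes were 1.77, 1.85 and 1.61, each with an SE of 0.13. TP73-AS1, facing the gene of the p53 relative p73, had log2 fold changes of 1.55, 1.90 and 1.25 in the same order (FDR = 4.14e-06, 1e-06 and 3.77e-05). VPS9D1-AS1 and NUTM2A-AS1 were also higher in all 3 IPs. THAP9-AS1 and SETD5-AS1 passed the test in none of them, with log2 fold changes between -0.31 and 0.38.

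C17orf76-AS1 had another pattern. It was at 535, 494 and 455 CPM in total RNA, at 694, 870 and 693 CPM in the eIF4A1 IP, at 508, 547 and 618 CPM in the IP of eIF4A2 and at 833, 1252 and 969 CPM in the DDX6 IP. It passed the test only in the DDX6 IP (log2 fold change 0.90 ± 0.20, FDR = 0.00236), while the values were 0.35 ± 0.20 for eIF4A1 (FDR = 0.147) and -0.15 ± 0.20 for eIF4A2 (FDR = 0.547). The direct comparison of eIF4A2 with DDX6 gave -1.05 ± 0.20 (FDR = 0.00453), and the libraries of these IPs did not overlap.

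The transcripts that were lower in the IPs were few. HNRNPU-AS1 fell from 98.3, 89.9 and 168 CPM in total RNA to 25.8, 16.7 and 17.2 CPM in the eIF4A1 IP (log2 fold change -2.82 ± 0.23, FDR = 1.60e-06), to 65.2, 48.4 and 66.8 CPM in the IP of eIF4A2 (-1.28 ± 0.22, FDR = 0.000281) and to 20.0, 13.6 and 17.9 CPM in the DDX6 IP (-2.93 ± 0.23, FDR = 8.11e-06). The third total RNA library was the highest of its group. HNRNPU, which encodes a nuclear RNA-binding protein, had a log2 fold change of -2.11 in the eIF4A2 IP (FDR = 3.98e-05), and the 2 rows may share reads.

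MORF4L2-AS1, named for a chromatin factor, fell as well. MORF4L2-AS1 went from 4.23, 3.79 and 7.02 CPM in total RNA to 2.12, 1.38 and 2.38 CPM in the eIF4A2 IP (-1.65 ± 0.28, FDR = 0.000309). These libraries did not overlap, which was a condition for naming it here. The other 2 IPs gave log2 fold changes of -1.77 and -2.38 for MORF4L2-AS1. RNF139-AS1, now RNF139-DT, was lower with eIF4A1 (-1.57 ± 0.22, FDR = 6.93e-05) and DDX6 (-1.71 ± 0.22, FDR = 6.96e-05) but had -0.11 ± 0.21 with eIF4A2 (FDR = 0.698).

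To ask whether the helicases differed, the IPs were compared with each other. Between eIF4A2 and eIF4A1, 2 antisense transcripts were higher with eIF4A2 and 0 lower, where 0.973% and 0.0858% of all genes were called (13 and 7 antisense transcripts at an unadjusted p below 0.05, and 6 higher and 0 lower in DESeq2). These were HNRNPU-AS1, with a log2 difference of 1.54 ± 0.22 (FDR = 0.00555), and RNF139-AS1, with 5.06, 4.01 and 5.92 CPM against 2.20, 1.28 and 1.75 CPM (1.46 ± 0.22, FDR = 0.00658). With the replicate number as a block, which pairs the libraries in this experiment, 12 were higher and 6 lower, and 7.12% and 8.7% of all genes. Between DDX6 and eIF4A1 none passed the test in edgeR (background 0.0801% higher and 0.0114% lower, with 1 and 26 antisense transcripts at an unadjusted p under 0.05), while the DESeq2 test called 0 higher and 6 lower. The block gave 1 higher and 19 lower, where 6.08% and 3.82% of all genes were called.

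The eIF4A2 and DDX6 IPs differed more. In this comparison 32 antisense transcripts were higher with eIF4A2 and 6 higher with DDX6 (21.6% and 4.05%), where 9.82% and 11.3% of all genes were called, and the median was 0.19 against -0.01 for all genes. With the block the counts were 45 and 15, against 18.5% and 22% of all genes, and with library totals 39 and 1, as the median of all genes then moved to 0.16. The count of 38 fell to 17 without eIF4A2 IP replicate 1, to 18 without DDX6 IP replicate 2 and to 22 without DDX6 IP replicate 3. FLG-AS1 was higher with eIF4A2 by 2.14 ± 0.35 (FDR = 0.00255), HNRNPU-AS1 by 1.64 ± 0.22 (FDR = 0.00189) and RNF139-AS1 by 1.60 ± 0.22 (FDR = 0.00198), as log2 differences. On the DDX6 side, NR2F1-AS1 (-0.63 ± 0.18, FDR = 0.0271) and ENTPD3-AS1 (-0.58 ± 0.18, FDR = 0.0333) stood beside C17orf76-AS1. The calls of NR2F1-AS1 and ENTPD3-AS1 were lost when certain single libraries were left out, such as DDX6 IP replicate 2 (FDR = 0.115 and 0.146).

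The study examined purine-rich tetramers in 5′UTRs, coding sequences and 3′UTRs, and compared groups of mRNAs bound by eIF4A1 or eIF4A2. Here they were counted in the exons of the 147 placed transcripts and set beside IP over total RNA, which is another contrast. The count was on the transcribed strand, without overlap (AAGA with AGAA, then GAAA with GAAG, GAGA with AGAG, and also GGAA with AAAA). Tetramer density ran from 1.41 to 4.66 per 100 nt with a median of 2.93. The third of transcripts with the lowest density (n = 49) had a median log2 fold change of 0.93 in the eIF4A2 IP and the third with the highest density 0.41. In the DDX6 IP these medians were 0.52 and 0.39. Across the 147 transcripts, density and the eIF4A2 IP fold change had Pearson's r = -0.16 and Spearman's rho = -0.20, a description of points that share libraries and base composition. GC content had r = 0.19 and rho = 0.22 on the same points, and exon length r = 0.0036 and rho = -0.01. The windows of 30 nt richest in these tetramers, from GRCh37 and written 5′ to 3′ on the transcribed strand with tetramers in capitals, are shown for transcripts at both ends of the eIF4A2 IP, FLG-AS1 and SOX21-AS1 at the upper end and MORF4L2-AS1 at the lower.

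FLG-AS1, chr1:152303986-152304015, plus strand: GAGAGAAGgtgcAGAAcAAGAgGGAAtagg
SOX21-AS1, chr13:95368163-95368192, plus strand: gaatagtGAAGGAAAataaattGAAAGAGA
MORF4L2-AS1, chrX:102944375-102944404, plus strand: ggagtgtcAAGAAGAGtgcaGGAAagcaaa

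The window of FLG-AS1 held 5 tetramers, that of SOX21-AS1 4 and that of MORF4L2-AS1 3. Of all 30-nt windows in the exons, 5.28% held at least 3, 1.11% at least 4 and 0.207% at least 5, and the richest window of each transcript held between 3 and 7.

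In gradients of cells with control siRNA, antisense transcripts as a group took up a larger share of subpolysomal than of polysomal RNA. Their summed level was 5223 ± 147 CPM in subpolysomal RNA and 1100 ± 156 CPM in polysomal RNA (SD, n = 4), against 1596 ± 29.9 CPM in input. The library labelled polysomal control replicate 3 held 873 CPM and the other 3 polysomal libraries 1126 to 1214 CPM. CPM is a share of each library, and the amounts of RNA in the fractions are not known. Which fraction held most of the molecules can therefore not be told. Of the 148 transcripts 122 were lower and 6 higher in polysomal than in subpolysomal RNA, or 82.4% and 4.05%, where 34.9% and 30.3% of all 15500 genes tested were called. The median log2 fold change was -1.42, against -0.06 for all genes and -1.28 for the 58 LINC genes. Without the library labelled polysomal control replicate 3 the counts were 123 lower and 5 higher (36.8% and 31% of all genes) and the median was -1.31.

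MORF4L2-AS1 showed the largest difference. It was at 28.7, 27.3, 17.96 and 20.2 CPM in subpolysomal RNA and at 0.624, 0.805, 0.428 and 0.674 CPM in polysomal RNA, a log2 fold change of -5.24 ± 0.27 (FDR = 2.71e-07) that was -5.05 without the doubted library. CAPN10-AS1, now CAPN10-DT, went from 57.1, 57.4, 40.4 and 51.9 CPM to 3.08, 3.65, 1.95 and 2.49 CPM (-4.24 ± 0.24, FDR = 3.11e-07, and -4.05 without it). LENG8-AS1 followed with -4.14 ± 0.28 (FDR = 7.72e-07, and -3.98 without it). The fractions of these transcripts did not overlap, which was a condition for naming them here.

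C17orf76-AS1 was at 1938, 2192, 2132 and 2016 CPM in the subpolysomal libraries, whereas the polysomal libraries held 159, 165, 63.1 and 206 CPM. The lowest of these is the doubted replicate 3. The log2 fold change was -3.82 ± 0.34 (FDR = 3.16e-06), and -3.54 ± 0.15 without that library (FDR = 2.63e-07). FGD5-AS1 (-2.50 ± 0.17, FDR = 8.14e-07), THAP9-AS1 (-3.59 ± 0.21) and SETD5-AS1 (-3.69 ± 0.20) were also much lower in polysomal RNA. VPS9D1-AS1 (-0.01 ± 0.25, FDR = 0.971) and ENTPD1-AS1 (0.10 ± 0.16, FDR = 0.589) were the only ones of the 10 most abundant that did not pass the test. Without the doubted library the log2 fold changes were -2.37 for FGD5-AS1, -3.45 for THAP9-AS1, -3.54 for SETD5-AS1, 0.01 for VPS9D1-AS1 (FDR = 0.969) and -0.0054 for ENTPD1-AS1 (FDR = 0.971).

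**Figure D3:**
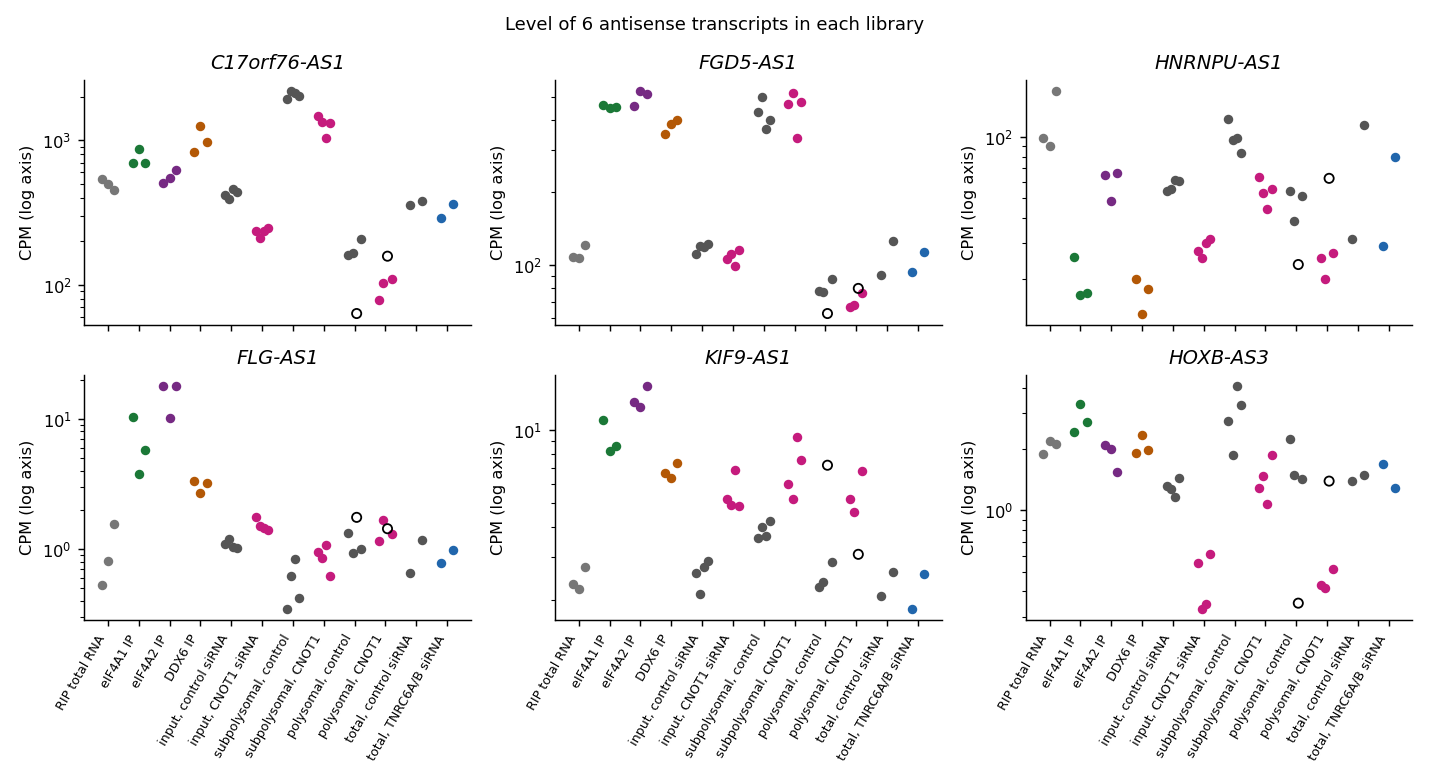
CPM on a log axis (y) of 6 antisense transcripts in each library of the 12 groups (x), with open circles for the libraries labelled polysomal replicate 3. C17orf76-AS1 reaches 1938 to 2192 CPM in control subpolysomal RNA, and FLG-AS1 is highest in the eIF4A2 IP at 10.1 to 17.8 CPM. HOXB-AS3 is lower in CNOT1 siRNA input than in control input in every library.

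The 6 transcripts that were higher in polysomal RNA were AGAP2-AS1, FLG-AS1, RPA3-AS1, CIRBP-AS1, USP2-AS1 and DHRS4-AS1. FLG-AS1 was at 0.349, 0.625, 0.847 and 0.424 CPM in subpolysomal and at 1.32, 0.933, 1.75 and 1.01 CPM in polysomal RNA (1.12 ± 0.34, FDR = 0.0117, and 0.98 without the doubted library). USP2-AS1, facing a deubiquitinase gene, was at 3.10, 3.00, 3.84 and 3.33 against 4.99, 4.88, 5.10 and 5.31 CPM (0.58 ± 0.19, FDR = 0.0166, and 0.63 without it, FDR = 0.00806). DHRS4-AS1 had 0.46 ± 0.18 (FDR = 0.0452) but FDR = 0.0544 without subpolysomal control replicate 1, FDR = 0.0567 without replicate 3 and FDR = 0.0917 without replicate 4 of that group, and likewise FDR = 0.092, 0.0787 and 0.0905 without polysomal control replicate 1, 2 or 4. DHRS4-AS1 had 0.58 ± 0.16 (FDR = 0.00748) without the doubted library. RPA3-AS1, AGAP2-AS1 and CIRBP-AS1, chosen for mention after their values were seen, overlapped between the fractions. Without the doubted library AGAP2-AS1 had 1.54 (FDR = 0.0142) and CIRBP-AS1 0.63 (FDR = 0.0548), and 91.9% of the exon sequence of AGAP2-AS1 is shared with OS9 on the same strand.

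RPA3-AS1, annotated today as the protein-coding gene UMAD1, had 0.91 ± 0.24 (FDR = 0.00543), and 1.11 ± 0.18 without that library (FDR = 0.000286). The other 4 transcripts with a protein-coding annotation were also chosen for mention after their values were seen. NCBP2-AS2 (-0.13 ± 0.25, FDR = 0.648) and SPTY2D1-AS1 (-0.23 ± 0.38, FDR = 0.613) did not pass the test, and MMP24-AS1 (-1.26 ± 0.36, FDR = 0.00856) and TOPORS-AS1 (-2.68 ± 0.31, FDR = 2.23e-05) were lower in polysomal RNA. Without the doubted library these 4 had 0.10 (FDR = 0.557), 0.02 (FDR = 0.956), -0.97 (FDR = 0.00832) and -2.40 (FDR = 8.98e-06) in that order. The search of the annotation found 3 transcripts whose locus holds a small nucleolar RNA on the same strand. It did not return C17orf76-AS1, although that gene is named a host gene, so the list may be incomplete. The 3 found were all lower, EPB41L4A-AS1 by -3.84 ± 0.26 (FDR = 7.77e-07), UBA6-AS1 by -1.64 ± 0.19 (FDR = 2.31e-05) and TMEM161B-AS1 by -1.53 ± 0.21 (FDR = 7.39e-05). Without the doubted library their values were -3.61, -1.46 and -1.35. Transcripts with a -DT symbol (n = 22) had a median of -1.57, with 20 lower and 0 higher, and the others (n = 125) a median of -1.41, with 101 lower and 6 higher. Without that library the medians were -1.40 and -1.27, with 20 and 102 lower and 0 and 5 higher.

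The IP and gradient values were related across the 148 transcripts. The eIF4A2 IP fold change and the polysomal over subpolysomal fold change had r = 0.45 and rho = 0.41, with r = 0.46 for eIF4A1 and 0.41 for DDX6. Without the library labelled polysomal control replicate 3 these values were r = 0.45 and rho = 0.41 for eIF4A2, r = 0.47 for eIF4A1 and r = 0.42 for DDX6. The 2 experiments share no library, but the points share gene length and mappability, so these values are a description. MORF4L2-AS1 and CAPN10-AS1 lay at the low end of both measures, and FLG-AS1 at the high end of both.

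**Figure D4:**
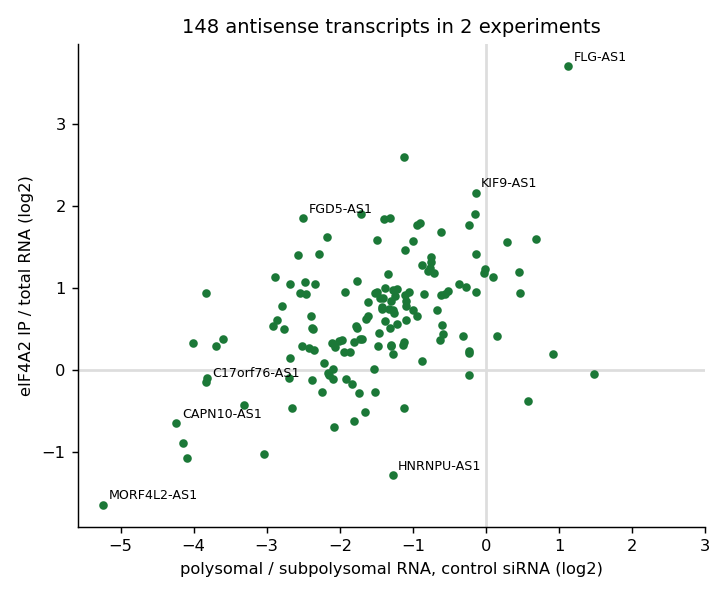
Log2 fold change in the eIF4A2 IP over total RNA (y axis) against that in polysomal over subpolysomal RNA with control siRNA (x axis), 1 point per antisense transcript (n = 148). The points rise from lower left to upper right (r = 0.45), with MORF4L2-AS1 at the lower left, FLG-AS1 at the upper right and C17orf76-AS1 at a log2 fold change of -3.82 on the x axis.

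To ask what loss of CNOT1 does to the levels, input RNA with CNOT1 siRNA was compared with control input. The CPM minimum of the rule used the same control libraries, so the selection touches this comparison. More antisense transcripts fell than rose, 60 (40.5%) against 26 (17.6%), where 30% and 30.9% of all 15686 genes did. The median log2 fold change was -0.20, against -0.002 for all genes and -0.38 for LINC genes. With all 24 gradient libraries in the fit 38 fell and 10 rose, where 15.6% and 13.4% of all genes were called. With library totals 47 fell and 29 rose and the median was -0.11, against 0.08 for all genes. Summed levels were 1596 ± 29.9 CPM with control siRNA and 1314 ± 29.9 CPM with CNOT1 siRNA, ranging from 1567 to 1637 and from 1288 to 1357. Without C17orf76-AS1 they were 1171 ± 20.5 and 1082 ± 26.9 CPM, and these ranges too did not overlap (1147 to 1193 against 1054 to 1111). In bulk RNA a lower level per cell and fewer cells that hold the RNA cannot be told apart.

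The largest decreases were those of HOXB-AS3, ZSCAN16-AS1 and LIFR-AS1. HOXB-AS3, which lies in the HOXB cluster of developmental transcription factors, was at 1.31, 1.27, 1.17 and 1.44 CPM with control siRNA and at 0.554, 0.329, 0.346 and 0.614 CPM with CNOT1 siRNA (-1.57 ± 0.22, FDR = 1.55e-05). ZSCAN16-AS1 was at 6.98, 6.19, 6.80 and 6.83 against 2.86, 3.11, 3.11 and 2.95 CPM (-1.24 ± 0.10, FDR = 8.08e-08). LIFR-AS1, named for the receptor of leukaemia inhibitory factor, fell by 1.12 ± 0.19 on the log2 scale (FDR = 0.00011). The groups did not overlap for any of the 3, which was a condition for naming them here. The sense genes ZSCAN16 (0.23, FDR = 0.0793) and LIFR (0.18, FDR = 0.0255) had log2 fold changes of the other sign.

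Of the most abundant transcripts, HNRNPU-AS1 and C17orf76-AS1 fell most. C17orf76-AS1 went from 420, 390, 456 and 436 CPM to 234, 211, 235 and 245 CPM (-0.96 ± 0.06, FDR = 8.14e-09), and HNRNPU-AS1 from 54.2, 55.3, 61.3 and 60.5 CPM to 27.5, 25.3, 30.2 and 31.4 CPM (-1.10 ± 0.07, FDR = 9.71e-09). HNRNPU itself had 0.09 (FDR = 0.212). THAP9-AS1 (-0.74 ± 0.09), TP73-AS1 (-0.63 ± 0.06) and SETD5-AS1 (-0.45 ± 0.07) also fell, whereas FGD5-AS1 changed by -0.21 ± 0.06 (FDR = 0.00399) with overlapping libraries. VPS9D1-AS1 (0.51 ± 0.09, FDR = 0.00013) and ENTPD1-AS1 (0.45 ± 0.06, FDR = 9.75e-06) rose.

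KIF9-AS1, SDCBP2-AS1 and ATP6V0E2-AS1 led the increases. KIF9-AS1 went from 2.60, 2.13, 2.73 and 2.91 CPM to 5.22, 4.91, 6.87 and 4.89 CPM (0.99 ± 0.14, FDR = 1.67e-05). SDCBP2-AS1 rose by 0.81 ± 0.13 (FDR = 8.26e-05) and ATP6V0E2-AS1, facing a subunit gene of the vacuolar proton pump, by 0.69 ± 0.13 (FDR = 0.000303). The CNOT1 siRNA libraries of all 3 lay above every control library, which was a condition for naming them here.

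The 4 HOX cluster transcripts differed among themselves. HOXA-AS2 was lower with CNOT1 siRNA in input (-0.94 ± 0.14, FDR = 3.48e-05), as was HOXB-AS3, HOXD-AS1 (now HAGLR) was higher (0.50 ± 0.12, FDR = 0.00213), and HOXA-AS4 (now HOXA10-AS) had -0.001 ± 0.13 (FDR = 0.996). HOXD-AS1 stood at 3.86, 3.42, 4.17 and 4.67 CPM against 5.17, 5.52, 6.52 and 6.95 CPM. In the eIF4A2 IP only HOXD-AS1 of the 4 was higher than in total RNA (0.91 ± 0.17, FDR = 0.000731). In polysomal over subpolysomal RNA, HOXA-AS2 had -2.35 ± 0.37 (FDR = 0.000186), HOXB-AS3 -1.13 ± 0.44 (FDR = 0.0415), HOXD-AS1 -0.61 ± 0.20 (FDR = 0.0157) and HOXA-AS4 -0.59 ± 0.25 (FDR = 0.0582). With the doubted library left out these values were -2.01, -0.77 (FDR = 0.0383), -0.61 (FDR = 0.0171) and -0.50 (FDR = 0.114). The call of HOXB-AS3 was lost without subpolysomal control replicate 1, 3 or 4 (FDR = 0.0567, 0.108 and 0.0781) and without polysomal control replicate 2 or 4 (FDR = 0.0673 and 0.0757). That of HOXD-AS1 was lost without subpolysomal control replicate 2 or 4 (FDR = 0.0904 and 0.095) and without polysomal control replicate 1 (FDR = 0.0565).

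The snoRNA-bearing EPB41L4A-AS1 fell by 0.85 ± 0.08 on the log2 scale in CNOT1 siRNA input (FDR = 4.1e-07), UBA6-AS1 by 0.55 ± 0.08 (FDR = 1.59e-05) and TMEM161B-AS1 by 0.40 ± 0.09 (FDR = 0.00129). In the eIF4A2 IP their log2 fold changes were 0.93 ± 0.20 (FDR = 0.00137) for EPB41L4A-AS1, 0.62 ± 0.13 (FDR = 0.00153) for UBA6-AS1 and 0.01 ± 0.15 (FDR = 0.975) for TMEM161B-AS1. The 5 transcripts annotated as protein-coding were all lower in CNOT1 siRNA input, with log2 fold changes from -1.03 for SPTY2D1-AS1 to -0.39 for NCBP2-AS2.

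In subpolysomal RNA, CNOT1 siRNA lowered 38 and raised 7 antisense transcripts (25.7% and 4.73%), where 15.2% and 12.6% of all 15823 genes were called. The replicate numbers pair these libraries, and with the replicate block 65 fell and 27 rose (43.9% and 18.2%), where 31.2% and 27% of all genes were called. The median was -0.20 against -0.04 for all genes. With library totals the median of all genes moved to 0.21 and that of the antisense transcripts to 0.05, and 23 fell and 27 rose, so the sign is that of a change relative to other genes. Without subpolysomal control replicate 1 the count of 45 was 28. Of the 38 that fell, 32 (84.2%) also fell in input, which is 53.3% of the 60 called lower there, where for all genes these shares were 71.1% and 36.3%. Of the 7 that rose, 6 (85.7%) also rose in input, which is 23.1% of the 26 called higher there. For all genes these shares were 73.7% and 30.2%. Input and fraction libraries of 1 number may come from 1 lysate.

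Among called transcripts whose libraries did not overlap between the siRNAs, HNRNPU-AS1 fell most. The lowest log2 fold change over all 148 transcripts, called or not, was -1.3. HNRNPU-AS1 went from 122, 96.3, 98.1 and 82.9 CPM to 63.2, 53.0, 43.99 and 55.6 CPM (-1.13 ± 0.15, FDR = 0.000977). FOXD2-AS1, near a forkhead factor gene, went from 27.7, 21.9, 36.1 and 33.6 CPM to 19.5, 13.7, 14.7 and 16.9 CPM (-1.13 ± 0.18, FDR = 0.00212), and TMEM9B-AS1 fell by 1.03 ± 0.19 on the log2 scale (FDR = 0.00343). SDCBP2-AS1 rose from 3.91, 4.71, 3.78 and 4.06 CPM to 11.0, 10.7, 9.93 and 13.1 CPM (1.19 ± 0.16, FDR = 0.00103). All values of each transcript were separate between the siRNAs, which was a condition for this choice. HOXD-AS1 (0.81 ± 0.16, FDR = 0.00516) and USP2-AS1 (0.80 ± 0.16, FDR = 0.00589) rose as well, and C17orf76-AS1 fell by 0.93 ± 0.14 on the log2 scale (FDR = 0.0018).

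In polysomal RNA no gene passed the test with all 8 libraries (background 0% in both directions), and 2 antisense transcripts had a higher and 3 a lower level at an unadjusted p below 0.05, with 0 in DESeq2. Without the 2 libraries labelled replicate 3, 43 antisense transcripts were lower and 11 higher, or 29.1% and 7.43%, where 18.9% and 21.8% of 14514 genes were called, and the median was -0.22. HOXB-AS3 then had -1.96 ± 0.28 (FDR = 0.000742), C17orf76-AS1 -0.91 ± 0.13 (FDR = 0.000789), HNRNPU-AS1 -1.05 ± 0.14 (FDR = 0.000515), KIF9-AS1 1.09 ± 0.19 (FDR = 0.00169) and ATP6V0E2-AS1 1.34 ± 0.20 (FDR = 0.000942). With all libraries kept, these 5 had FDR = 0.889.

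The effect of CNOT1 siRNA in polysomal RNA was then compared with that in subpolysomal RNA as an interaction, to ask whether the distribution across the gradient moved. With all 16 libraries no antisense transcript passed the test, where 0.576% and 0.376% of all genes were called, and an unadjusted p under 0.05 was reached by 10 with a positive and 5 with a negative value (DESeq2 called 0 higher and 1 lower). Without the 2 doubted libraries 2 were higher, A1BG-AS1 (0.81 ± 0.21, FDR = 0.025) and ADIRF-AS1 (0.89 ± 0.27, FDR = 0.0454), and 3 lower, WDFY3-AS2 (-1.13 ± 0.34, FDR = 0.0445), DHRS4-AS1 (-0.84 ± 0.24, FDR = 0.0379) and TRAF3IP2-AS1 (-0.75 ± 0.20, FDR = 0.0297). These counts are 1.35% and 2.03%, where 5.47% and 3.97% of all genes were called, and the median was -0.01. Across the 148 transcripts the polysomal over subpolysomal fold change and the change in CNOT1 siRNA input had r = 0.50 and rho = 0.54, and r = 0.43 and rho = 0.46 without the library labelled polysomal control replicate 3. These libraries differ but may come from the same lysates.

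**Figure D5:**
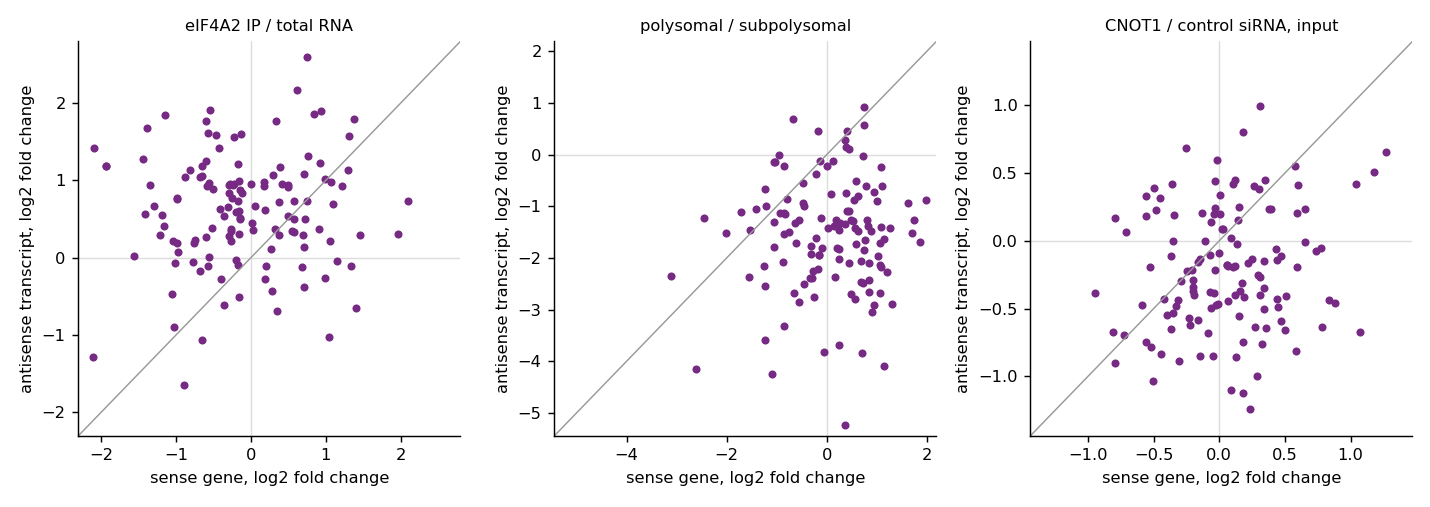
Log2 fold change of each antisense transcript (y axis) against that of the sense gene it is named for (x axis) in 3 comparisons, with the line of equality. Most points lie above the line in the eIF4A2 IP (99 of 132 pairs) and below it in polysomal over subpolysomal RNA (all but 16 of 125 pairs), and neither cloud follows the line.

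Each antisense transcript was set beside the gene left when the -AS suffix is removed, which had its own counts for 143 of the 148. In control input the sense gene had the higher CPM in 106 pairs, with a median of 38.4 CPM, although 23 sense genes were under 1 CPM. In the eIF4A2 IP 32 of 130 tested sense genes were higher and 42 lower, where 24.5% and 25.8% of all genes were called. The sense genes had a median of -0.17, while the antisense transcripts of the same pairs had a median of 0.64. Both sides passed the test in the same direction in 23 pairs and in opposite directions in 27. For these and the later pair counts, the numbers expected of unrelated genes were not worked out. Across the 132 pairs the fold changes had r = 0.05 and rho = 0.02. In polysomal over subpolysomal RNA the sense genes had a median of 0.24 and their antisense transcripts -1.48, with 33 pairs called the same way, 45 called opposite ways and r = 0.05. Without the doubted library the medians were 0.20 and -1.34, 39 pairs were called the same way and 45 opposite ways, r was 0.06, and the antisense transcript lay above its sense gene in 21 of 125 pairs.

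Several of these pairs were far apart. In polysomal over subpolysomal RNA, LIFR-AS1 had -2.89 (FDR = 0.000106) and LIFR 1.31 (FDR = 3.17e-05). HNRNPU-AS1 had -1.27 (FDR = 0.000788) and HNRNPU 1.74 (FDR = 4.76e-06). HNRNPU-AS1 could not be placed apart from HNRNPU, so its position as antisense is not known, though the pair counts include it. USP2-AS1 (0.58) and USP2 (0.74, FDR = 0.00571) were both higher. Without the doubted library the log2 fold changes were -2.52 for LIFR-AS1 and 1.21 for LIFR, -1.04 for HNRNPU-AS1 and 1.65 for HNRNPU, and 0.63 for USP2-AS1 and 0.61 for USP2. In CNOT1 siRNA input the sense genes had a median of 0.04 and the antisense transcripts -0.21, and the 128 pairs had r = 0.16 and rho = 0.13, with 27 pairs called the same way and 25 opposite ways.

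With siRNAs against TNRC6A and TNRC6B, no gene passed the test in edgeR without pairing (0% in both directions), TNRC6A and TNRC6B included (FDR = 1.00 for both). The median log2 fold change of the antisense transcripts was -0.31, against -0.03 for all genes and -0.32 for LINC genes, and 127 of 148 were not above 0. In edgeR an unadjusted p under 0.05 was reached by 5 antisense transcripts, with 0 of them higher, and DESeq2 called none, with 1 at such a p. These were PTOV1-AS1, UBAC2-AS1, LENG8-AS1, LIFR-AS1 and KCTD21-AS1, chosen for mention after their values were seen. PTOV1-AS1 had 2.26 and 2.74 CPM with control siRNA and 0.863 and 0.931 CPM with TNRC6A/B siRNA, a log2 fold change of -1.45 ± 0.35 (unadjusted p = 0.00901 and FDR = 1.00, edgeR). LENG8-AS1 had 2.08 and 2.28 against 0.942 and 1.16 CPM, and LIFR-AS1 1.04 and 1.43 against 0.432 and 0.640 CPM. The libraries of 1 group differed widely for some transcripts, such as HNRNPU-AS1 with 31.5 and 114 CPM in control and 29.2 and 79.5 CPM in TNRC6A/B siRNA RNA, where replicate 2 was the higher in both groups.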

How the data were processed

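RNA-Seq counts per gene were taken as the authors deposited them, 1 table per library, with reads demultiplexed by bcl2fastq 2.0, aligned to hg19 by TopHat2 and counted by HTSeq according to the labels, the submitters' processing notes and the study's methods. Libraries were made with a stranded kit, but the strand option of the counting is not given in the sources used here. A deposited table of the authors' own IP comparisons was not used. Lysates for the gradients were cleared of nuclei by centrifugation, whereas cells of the TNRC6A/B experiment were extracted directly.

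CPM is the count divided by the library total times 1000000, without further scaling. Counts were tested with edgeR 4.0.16 in R 4.3.3 (filterByExpr, TMM factors, quasi-likelihood F-test, two-sided), with Benjamini-Hochberg adjustment over all genes and a threshold of 0.05. The RIP-Seq comparisons came from 1 fit of 12 libraries, the gradient comparisons from the groups compared (16 libraries for the interaction) and the TNRC6A/B comparison from 4 libraries. The SE is the absolute log2 fold change divided by the square root of F. DESeq2 1.42.0, RLE factors, library totals, no filter, a replicate block, other sets of libraries in the fit and leaving out each library were alternatives. The fits without the libraries labelled polysomal replicate 3 that also carry the replicate block were added after the data were seen. The fit was tested on simulated data with known changes.

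Replicate numbers were taken from the titles, although the description of the third RIP total RNA library numbers it 2. They were checked for pairing by correlating deviations from group means. Every pair was above 0.1 in the 6 RIP-Seq comparisons (0.17 to 0.67), in CNOT1 siRNA input (0.17 to 0.28) and in subpolysomal RNA (0.53 to 0.69). In the other gradient comparisons the lowest pair was below 0 (-0.57 for polysomal RNA), and the TNRC6A/B experiment has only 2 pairs.

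The members and all lists were chosen with earlier results of these data known. Named were the 10 most abundant members, up to 3 called members with the largest increase and 3 with the largest decrease per comparison among those without overlap of libraries, the neighbours of the CPM minimum, HOX members and members whose locus holds a small nucleolar RNA. Sense partners are the symbols without the -AS ending. Annotation and sequence came from GENCODE release 44 on GRCh37. Some items that these rules name are not reported here, though the counts over all members include them.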

Additional observations from a re-analysis of the deposited data

Results flagged for a closer look

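In groups of 4 libraries, 78 sets of values were searched for a library far from the others, of which chance flags about 1 in 20, and 4 were found. NUTM2A-AS1 stood at 78.4 CPM in CNOT1 siRNA subpolysomal replicate 1, against 66.6 to 68.3 CPM in the other 3. CNOT1 itself stood at 27.4 CPM in the library labelled polysomal control replicate 3 (446.8 to 468.8 in the others) and at 589.8 CPM in the library labelled polysomal CNOT1 siRNA replicate 3 (22.9 to 31.5 in the others). HNRNPU-AS1 was at 62.5 CPM in that last library and at 20.0 to 26.7 CPM in the others of its group.

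The effect of CNOT1 siRNA differed between polysomal and subpolysomal RNA for 5 transcripts in the edgeR interaction test without the 2 libraries labelled polysomal replicate 3. That is 1.35% of the antisense transcripts higher and 2.03% lower, fewer than the 5.47% and 3.97% of all genes called. The difference was -1.13 for WDFY3-AS2 (FDR = 0.0445), -0.84 for DHRS4-AS1 (FDR = 0.0379), -0.75 for TRAF3IP2-AS1 (FDR = 0.0297), 0.81 for A1BG-AS1 (FDR = 0.025) and 0.89 for ADIRF-AS1 (FDR = 0.0454), on the log2 scale. With these libraries kept, the 5 had FDR values from 0.205 for DHRS4-AS1 to 0.596 for WDFY3-AS2.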

How the results depend on the processing

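Counts of called antisense transcripts stayed within 1.5 times of the reported ones for all 3 IPs over total RNA and for polysomal over subpolysomal RNA under every alternative run. Elsewhere they moved, and the cause was not tested. With DESeq2 the count was 6 for eIF4A2 against eIF4A1, 6 for DDX6 against eIF4A1 and 1 for the interaction. Without a filter it was 4 and 5 in the first 2 of these. With the replicate block it was 18, 60, 20 and 92 for eIF4A2 against eIF4A1, eIF4A2 against DDX6, DDX6 against eIF4A1 and CNOT1 siRNA in subpolysomal RNA. For TNRC6A/B siRNA the block gave 5, 0 higher and 5 lower (3.7% and 1.73% of all genes). The pairs of that experiment correlated at 0.82, which is a single value, because 2 libraries per group make both pairs equal. With all libraries kept, the block moved no other count by over 1.5 times. Only the compared libraries gave 1 for eIF4A2 against eIF4A1, where RNF139-AS1 had FDR = 0.0706. All 24 gradient libraries in the fit gave 48 for CNOT1 siRNA in input and 2 for the interaction, which had 2 with library totals. Without the libraries labelled polysomal replicate 3, polysomal CNOT1 siRNA gave 54 and the interaction 5, and with the block as well 69 (13 higher and 56 lower, against 31.2% and 27.1% of all genes) and 12 (6 and 6, against 9.85% and 7.25%).

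Leaving out 1 library at a time gave 95 to 103, 85 to 92 and 81 to 88 calls in the eIF4A1, eIF4A2 and DDX6 IP, 2 to 3 for eIF4A2 against eIF4A1, 17 to 31 for eIF4A2 against DDX6, 73 to 82 for CNOT1 siRNA in input, 28 to 43 in subpolysomal RNA, 119 to 128 for polysomal over subpolysomal RNA and 0 to 0 in the other 4 comparisons. Of 1234 alternative values for single transcripts, 0 reversed and 46 lost the call, 32 of them with a library left out. The 46 belong to 10 values, those of MAGI2-AS3 (eIF4A2 IP), ENTPD1-AS1 (DDX6 IP), RNF139-AS1, NR2F1-AS1, ENTPD3-AS1, FGD5-AS1 and VPS9D1-AS1 (CNOT1 siRNA input), DHRS4-AS1, HOXD-AS1 and HOXB-AS3. Depth limits the scarcest transcripts, with counts down to 4 in a library.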
